A study of Drosophila melanogaster with 13 samples.

Results

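The sperm leucyl aminopeptidases of Drosophila melanogaster were examined as transcripts in whole testes. Members were chosen by name, as genes whose platform symbol starts with S-Lap, together with loopin-1 and grsm, through probe sets paired with exactly 1 gene. The rule found 5 genes, S-Lap2, S-Lap5, S-Lap7, S-Lap8 and grsm, of 11983 genes with such a probe set, each with 1 probe set. S-Lap1, S-Lap3, S-Lap4 and loopin-1 (also called S-Lap6) were not analysed here. All 5 members passed the filter on low values (a log2 value above 4 in at least 3 of the 13 arrays), as did 8720 genes in all.

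Testes of males 0 to 1 day after eclosion, raised at 25 °C and freed of seminal vesicles and accessory glands, were profiled on 13 arrays. The control flies, called WT, carried the eye and body colour alleles red[1] and e[1] (3 arrays). Mutants of always early (aly), which encodes a subunit of tMAC, a testis form of a chromatin regulator complex, were aly[2]/aly[5p] (3 arrays), and mutants of spermatocyte arrest (sa), which encodes a testis TBP-associated factor, were sa[1]/sa[2] (3 arrays). Mutants of magellan (magn), alleles of the polyubiquitin gene Ubi-p63E, came as magn[12c]/magn[23b] (2 arrays) and as magn[12c]/magn[12c];pSC2 (2 arrays), where the labels do not say what pSC2 is. Whether the replicates came from separate crosses is not given, so p-values measure the spread between these samples. Only WT carries red[1] and e[1] in the labels, so a strain difference cannot be told apart from the mutation in any comparison with WT.

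Leucyl aminopeptidases of the M17 family are metal-dependent enzymes that trim amino acids from the N-termini of peptides. In Drosophila a set of paralogs, the S-Laps, is expressed in the testis and makes up a large part of the protein of mature sperm. Some have lost residues needed for catalysis, and S-Lap proteins contribute to the paracrystalline material that fills the mitochondrial derivatives along the sperm tail. The name loopin comes from a protein found on a lampbrush-like Y chromosome loop of primary spermatocytes. The grsm (granny smith) gene encodes another M17 family protein that is not named for sperm. The mutated genes aly and sa are needed for spermatocytes to switch on transcripts of spermatid differentiation and to enter meiosis.

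By RefSeq's gene order (assembly Release 6 plus ISO1 MT), S-Lap2 lies on chromosome arm 3L beside S-Lap1, and S-Lap5, S-Lap7 and S-Lap8 lie on 2R. The protein-coding genes next to S-Lap8 on one side are knon, Sema2a and loopin-1, in that order. The grsm gene lies on 3R. No sequence of the probe sets was used, so how far signal of one paralog reaches the probe set of another was not tested.

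The arrays were first checked by the mutated genes and by markers of the cells a testis holds. Ubi-p63E read 14.65 to 14.90 (log2) in WT, 3.93 and 5.47 in magn[12c]/magn[23b], and 3.59 and 3.88 in magn[12c]/magn[12c];pSC2. The sa gene read 10.80 to 11.13 in WT and 5.84 to 6.25 in sa, whereas aly read 5.95 to 6.28 in WT and 7.23 to 7.34 in aly, so the probe set of aly shows no loss there. All 8 spermatid and sperm markers fell in aly and in sa. Their summed level (log2 of the sum of linear values) was 16.70 to 16.83 in WT arrays, 10.06 to 10.46 in those of aly and 13.83 to 14.55 in those of sa. The magn combinations stood at 16.56 to 16.66 (magn[12c]/magn[23b]) and 16.16 to 16.23, which hides changes of single markers. In magn[12c]/magn[23b] sunz fell (-1.42) and dj rose (1.17). In magn[12c]/magn[12c];pSC2 sunz (-2.95), w-cup (-1.89) and ProtB (-1.01) fell, and none rose. The 6 spermatocyte markers summed to 15.28 to 15.36 in WT arrays, 15.42 to 15.60 in aly arrays and 13.48 to 13.90 in sa arrays. That sum hides members going both ways in aly, where bol (-4.52), twe (-1.82) and betaTub85D (-1.47) fell while topi (3.14), sa (2.74) and can (1.96) rose. In sa 4 of the 6 fell, among them sa itself. All 9 accessory gland markers fell in aly, from a summed level of 14.20 to 17.23 in WT to 13.18 to 13.69. Of 6 sheath muscle markers only sls (-5.98) and Msp300 (-5.71) fell in aly. The sheath muscle sum was 11.21 to 12.49 in WT and 9.35 to 10.15 in aly. Both genes also fell in sa (-1.82 and -4.11). Mf rose in magn[12c]/magn[23b] (1.42). In magn[12c]/magn[12c];pSC2 Mf (1.80) and Mlc2 (1.94) rose, and Msp300 fell (-2.06). Accessory gland markers also set the magn combinations apart. In magn[12c]/magn[23b] 5 of the 9 fell and the sum was 13.71 to 13.84, below every WT array, whereas it was 16.60 to 16.62 in magn[12c]/magn[12c];pSC2, within the WT range. Of 5 cyst and hub cell markers, tj, zfh1 and upd1 stayed at or below a log2 value of 4 in every array, as did vas among 4 early germline markers. The other early germline markers, bam, zpg and aub, rose in aly (4.85, 3.53 and 2.33) and in sa (3.56, 2.52 and 2.15), and bam and aub rose in both magn combinations. Of 6 fat body markers 3 were tested, and all 3 fell in aly and in sa, with apolpp at -7.65 and -3.18, while 2 fell in each magn combination. Of 5 hemocyte markers 3 rose in aly, 3 in sa, 3 in magn[12c]/magn[23b] and 4 in magn[12c]/magn[12c];pSC2, with Hml at 3.90 and 3.83 in the last pair. The 3′ minus 5′ signal of the actin control Act5C ranged from 1.23 to 1.70 in WT. It was higher in the aly arrays (2.27 to 2.73) and the sa arrays (2.44 to 4.76), with the highest in sa replicate 3. Both magn combinations also lay above WT, at 1.72 to 1.82 and 1.86 to 3.21. The eIF4a control differed for aly, whose arrays (2.55 to 2.71) lay within the WT range of 2.27 to 2.79. Those of magn[12c]/magn[23b] (1.73 to 1.94) lay below that range, and those of magn[12c]/magn[12c];pSC2 read 1.99 to 2.62. The sa arrays (2.72 to 3.75) overlapped WT in eIF4a and reached above it. GAPDH read 1.08 to 1.29 in WT, overlapped it in aly and magn[12c]/magn[23b], and was higher in sa (1.48 to 2.15) and magn[12c]/magn[12c];pSC2 (1.46 to 1.97). The part of these differences in the results below was not tested.

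In whole testes, fewer cells of a type and less RNA per cell cannot be told apart, which holds for every value that follows. Values are log2 probe set summaries of the authors' GCRMA, and changes are differences of group means in limma across all 8720 genes. The words rose and fell stand for a change of 2-fold or more with a Benjamini-Hochberg adjusted p under 0.05. The brightest probe set of an array read 15.53 to 15.86, and S-Lap2, S-Lap7 and S-Lap8 read above 14 in all WT arrays.

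The WT transcripts of the S-Lap genes were abundant and varied little. S-Lap7 read 14.98, 14.81 and 15.03 in the 3 WT arrays. S-Lap2 read 14.59, 14.39 and 14.67. S-Lap8 read 14.32, 14.15 and 14.53. S-Lap5 was the one most spread out, at 12.93, 12.53 and 12.80 (SD 0.21), and grsm had a mean of 13.11 (SD 0.09, n = 3). WT replicate 2 gave the lowest value for all 5 genes.

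**Figure D1:**
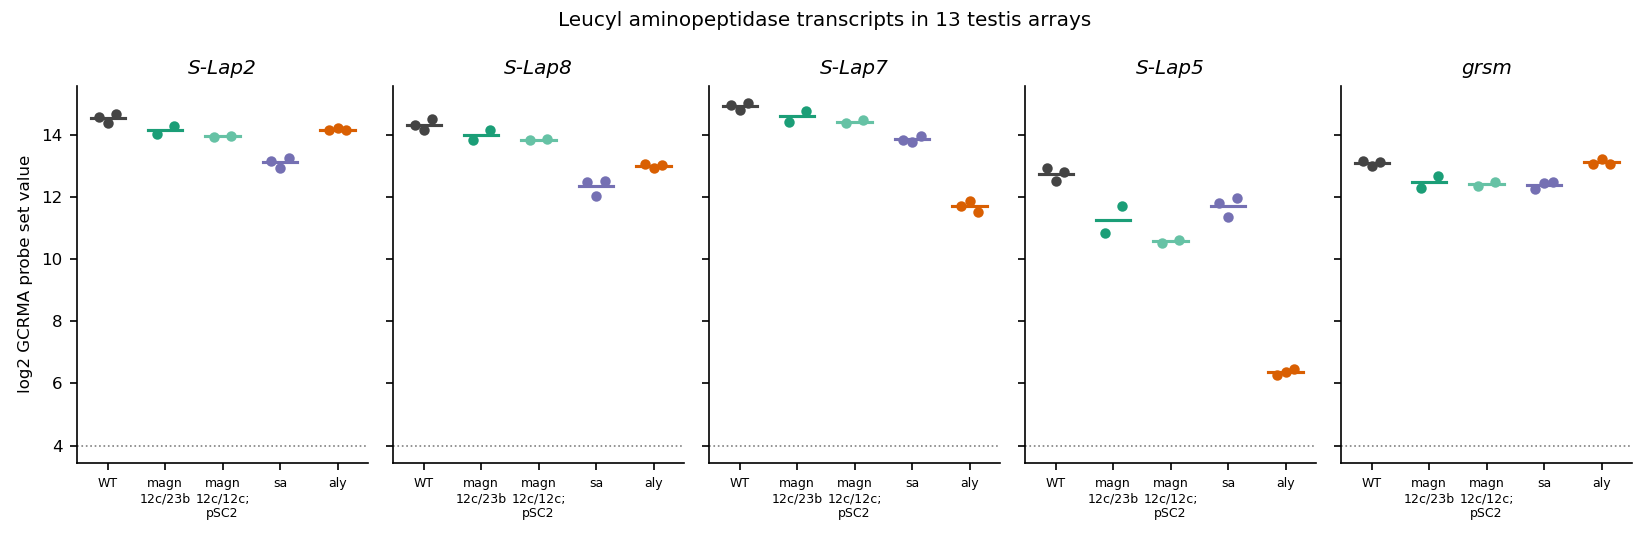
Log2 GCRMA value of each gene (panels) in each of 13 arrays (points), by genotype, with group means as bars and a dotted line at 4, the level used to call a probe set above background. S-Lap5 in aly stands at 6.29 to 6.47, the lowest of all points, while grsm in aly lies with WT.

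The comparison of aly with WT asks how the members read in testes mutant for a tMAC subunit. S-Lap5, S-Lap7 and S-Lap8 fell, in that order of size, while S-Lap2 and grsm stayed close to the WT level. These 3 of 5 members stand against 24.8% of all genes called lower in the same comparison and 45.6% called higher. All aly arrays lay below all WT arrays for 4 members and for 28.8% of all genes. The median change over all 8720 genes was 0.77, against -1.32 over the 5 members.

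S-Lap5 read 6.29, 6.36 and 6.47 in the aly arrays. All 3 aly arrays lay far below every other array, whose lowest value was 10.53, and still above the background level of 4. S-Lap5 fell by 6.38 on the log2 scale, or 83.3-fold (95% interval -6.85 to -5.92, SE 0.22, adjusted p = 4.92e-12, limma). Of all genes tested, 9.74% had a lower fitted change. S-Lap7 read 11.72, 11.86 and 11.52 in aly, below all arrays of the other genotypes, the lowest of which was 13.77. It fell by 3.24 on the log2 scale, or 9.44-fold (95% interval -3.49 to -2.98, adjusted p = 1.05e-11, limma). S-Lap8 read 13.08, 12.93 and 13.04, below WT but above all sa arrays. It fell by 1.32, or 2.50-fold (95% interval -1.62 to -1.02, adjusted p = 8.43e-07, limma).

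S-Lap2 read 14.15, 14.23 and 14.15 in aly. Each of these lay just below the lowest WT array, a log2 change of -0.38 that is smaller than 2-fold (95% interval -0.61 to -0.14, adjusted p = 0.00583, limma). For grsm the aly arrays read 13.07, 13.24 and 13.06, which overlapped WT, with a log2 change of 0.01 (95% interval -0.24 to 0.27, adjusted p = 0.924, limma). With arrays centred on their 41 cytosolic ribosomal protein genes, whose own median change was 1.46, all 5 members were called lower, grsm at -1.43 and S-Lap2 at -1.82. That centring also turned the calls over all genes from 2164 lower and 3973 higher to 3819 lower and 1699 higher, which is 43.8% lower.

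In sa testes all 4 S-Lap genes fell, by between 1.03 and 1.99 on the log2 scale relative to WT, and no single gene stood as far out as S-Lap5 did in aly. The order was different, with S-Lap8 and S-Lap2 changed most. Among all genes 21.6% were called lower and 40.9% higher, with a median change of 0.66, and 25.7% had all sa arrays below all WT arrays, as did all 5 members. The 5 members had a median of -1.08.

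S-Lap8 read 12.48, 12.04 and 12.51 in sa, the lowest of the 5 genotypes. It fell by 1.99, or 3.97-fold (95% interval -2.29 to -1.69, adjusted p = 2.45e-08, limma). S-Lap2 read 13.17, 12.94 and 13.28, again below all arrays of the other genotypes, and fell by 1.42, or 2.68-fold (95% interval -1.66 to -1.19, adjusted p = 5.51e-08, limma). S-Lap7 read 13.85, 13.77 and 13.96, between aly and the magn arrays. Its fall of 1.08, or 2.11-fold (95% interval -1.33 to -0.82, adjusted p = 1.71e-06, limma), lay close to the 2-fold minimum. S-Lap5 read 11.83, 11.37 and 11.98, below the WT arrays and overlapping magn[12c]/magn[23b]. Its change of -1.03, or 2.04-fold lower (95% interval -1.49 to -0.56, adjusted p = 0.000654, limma), passed the 2-fold minimum narrowly, and read -0.85 without sa replicate 2 and -0.94 without WT replicate 1.

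The grsm arrays of sa read 12.26, 12.45 and 12.49, all below WT, with a log2 change of -0.71 that is under 2-fold (95% interval -0.96 to -0.45, adjusted p = 9.95e-05, limma). After quantile normalization the changes of S-Lap5 and S-Lap7 in sa were -0.88 and -0.93, which left 2 members called. Centring on ribosomal protein genes gave 5 members called lower, with grsm at -2.11, and 3816 genes lower and 910 higher in place of 1884 and 3567.

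The magn allele combinations carry mutations of Ubi-p63E, and each was compared with WT. S-Lap5 fell in both, whereas S-Lap2, S-Lap7, S-Lap8 and grsm were lower by less than 2-fold. The single member called lower in each stands against 12.4% of all genes for magn[12c]/magn[23b] and 16.8% for magn[12c]/magn[12c];pSC2, with 25.4% and 32.2% called higher. All mutant arrays lay below all WT arrays for the 5 members in both, as they did for 23.5% and 26.3% of all genes. The median changes over all genes were 0.33 and 0.46, and those over the members -0.39 and -0.59.

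S-Lap5 read 10.85 and 11.71 in magn[12c]/magn[23b] and 10.53 and 10.63 in magn[12c]/magn[12c];pSC2. All 4 arrays lay below WT and above aly. S-Lap5 fell by 1.47 in the first, or 2.78-fold (SE 0.24, adjusted p = 0.000201, limma, n = 2 and 3), and fell by 2.17 in the second, or 4.51-fold (95% interval -2.70 to -1.65, adjusted p = 4.36e-06, limma, n = 2 and 3). S-Lap2 read 14.04 and 14.30, and 13.94 and 13.98, in the same order of genotypes. Its log2 changes were -0.39 (adjusted p = 0.0159, limma) and -0.59 (adjusted p = 0.000789, limma). S-Lap7 read 14.42 and 14.79, and 14.39 and 14.48, with changes of -0.34 (adjusted p = 0.0433, limma) and -0.51 (adjusted p = 0.00405, limma).

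S-Lap8 read 13.84 and 14.15 in magn[12c]/magn[23b] and 13.85 and 13.86 in magn[12c]/magn[12c];pSC2. The second magn[12c]/magn[23b] array lay barely below the lowest WT array, and the change of -0.34 there did not pass the adjusted p (0.0782, limma, 95% interval -0.68 to -0.0036), while the other combination read -0.48 (adjusted p = 0.0151, limma). For grsm the arrays read 12.30 and 12.69, and 12.35 and 12.48, all below WT, with changes of -0.61 (adjusted p = 0.00161, limma) and -0.69 (adjusted p = 0.000473, limma). Centring on ribosomal protein genes gave 5 members called lower in either combination, and S-Lap5 changes of -2.33 and -3.23. The calls over all genes then were 2748 lower and 698 higher for magn[12c]/magn[23b], in place of 1082 and 2219, and 3226 lower and 761 higher for the other combination, in place of 1463 and 2810. Quantile normalization gave 1355 lower and 1488 higher for magn[12c]/magn[23b]. The 4 comparisons with WT share the same 3 WT arrays and are not independent of each other.

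**Figure D2:**
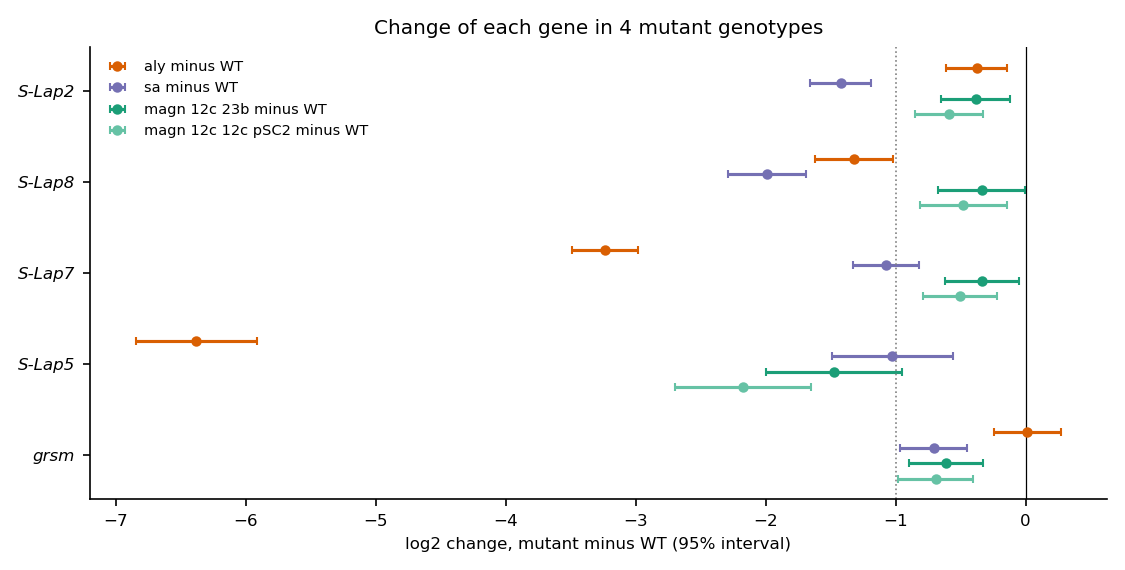
Log2 change (mutant minus WT) of each gene in each mutant genotype with its 95% interval, with lines at 0 and at the 2-fold minimum of -1. The change of S-Lap5 in aly (-6.38) and of S-Lap7 in aly (-3.24) lie outside the intervals of all other changes of the same gene, and those of S-Lap2 and S-Lap8 reach furthest down in sa.

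**Figure D3:**
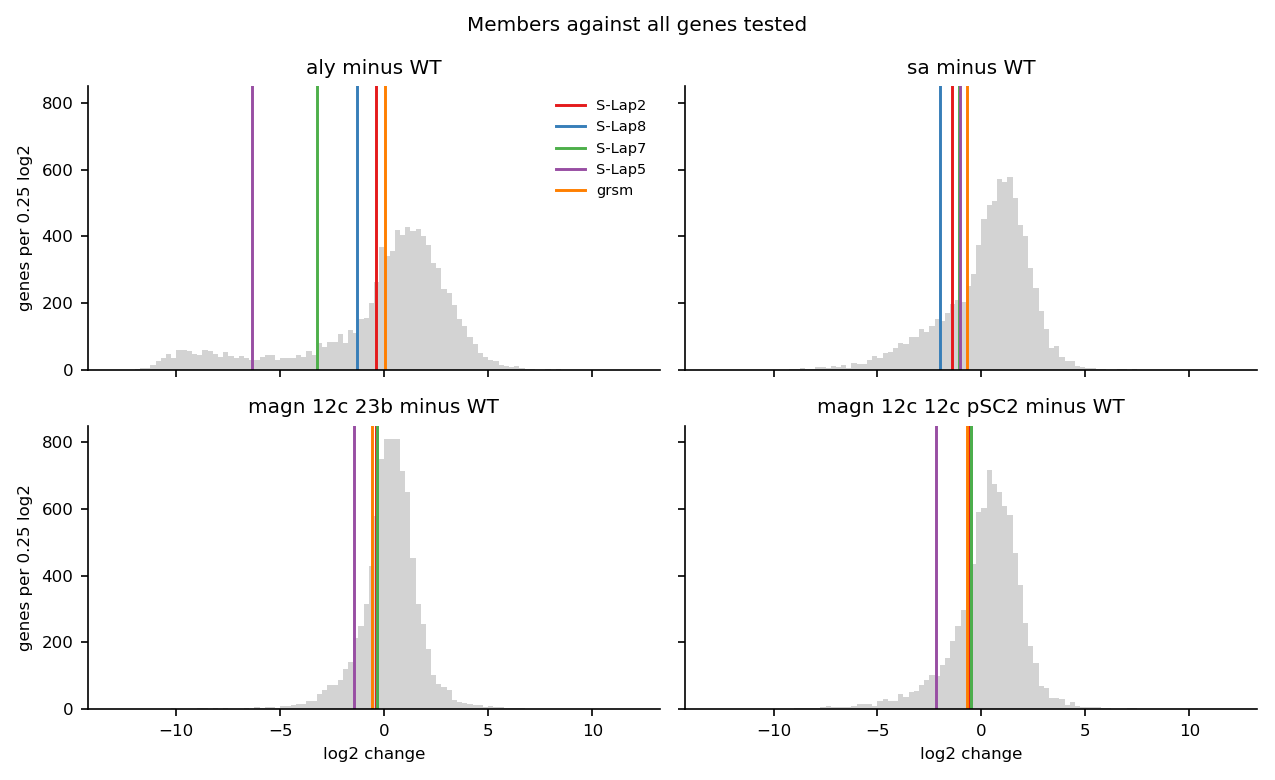
Histograms of the log2 change of all 8720 genes tested (genes per bin of 0.25 log2) in the 4 comparisons with WT, with the members as coloured lines. The bulk of genes lies above 0, with medians of 0.77, 0.66, 0.33 and 0.46, and all 5 members lie left of these medians.

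The 2 meiotic arrest genotypes were compared directly, because a fall in each against WT does not show whether they differ. The members went in opposite directions. S-Lap5 was 5.35 log2 units higher in sa than in aly, or 40.9-fold (95% interval 4.89 to 5.82, adjusted p = 7.26e-11, limma), and S-Lap7 was 2.16 higher, or 4.47-fold (95% interval 1.91 to 2.41, adjusted p = 1.90e-09, limma). S-Lap2 was 2.07-fold lower in sa than in aly (log2 change -1.05, 95% interval -1.28 to -0.81, adjusted p = 1.98e-06, limma). S-Lap8 (-0.67, adjusted p = 0.000966, limma) and grsm (-0.72, adjusted p = 0.00015, limma) were lower in all sa arrays than in all aly arrays, but by less than 2-fold.

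Over all genes 18.8% were called lower and 21.2% higher in sa than in aly, against 1 and 2 of the 5 members. The call of S-Lap2 rests on the fold minimum, since its change was -0.98 after quantile normalization and -0.96 without sa replicate 2. Those of S-Lap5 and S-Lap7 held in both. The ribosomal protein genes differed by 0.03 between sa and aly, so centring on them left these values nearly as they were.

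The mean of the magn combinations was set against each arrest genotype as well. Compared with aly, S-Lap5 was 23.5-fold higher (log2 change 4.56, adjusted p = 1.16e-10, limma) and S-Lap7 7.05-fold higher (2.82, adjusted p = 2.93e-11, limma), with 26.2% of all genes called higher and 33.5% lower. S-Lap8 differed by 0.91, S-Lap2 by -0.11 and grsm by -0.67, each under 2-fold. Against sa, S-Lap8 was 2.99-fold higher (1.58, adjusted p = 3.71e-07, limma), with 19.1% of all genes called higher and 19.4% lower. S-Lap2 (0.94) and S-Lap7 (0.66) were also higher in every magn array than in every sa array, by less than 2-fold, and S-Lap5 was -0.80 with overlapping arrays. Centring on ribosomal protein genes changed the calls over all genes to 1980 lower and 2808 higher against aly, in place of 2917 and 2285, and brought the members called higher to 3, with S-Lap8 at 1.402 (adjusted p = 1.05e-05, limma). Against sa the calls over all genes became 815 lower and 2337 higher, in place of 1690 and 1663.

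Between the 2 magn combinations no member was called by limma. S-Lap5 was -0.70 in magn[12c]/magn[12c];pSC2 relative to magn[12c]/magn[23b] (95% interval -1.27 to -0.13, unadjusted p = 0.02 and adjusted p = 0.0886 in limma across all genes, n = 2 and 2), and it was the single member with an unadjusted p under 0.05. Leaving out magn[12c]/magn[23b] replicate 1, the lower of its 2 arrays, gave -1.13, with 1 array left in that group. The other 4 differences ran from -0.21 to -0.08. Of the 9 accessory gland markers, 8 were called higher in magn[12c]/magn[12c];pSC2 than in magn[12c]/magn[23b], by 2.32 to 3.55, and their part in these differences was not tested. Of all genes 7.94% were called lower and 2.14% higher, or 813 lower and 96 higher with the ribosomal centring in place of 692 and 187, and 696 and 263 after quantile normalization.

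The order of levels across the 5 genotypes differed from gene to gene. For S-Lap2 it was WT, aly, magn[12c]/magn[23b], magn[12c]/magn[12c];pSC2 and sa, where the arrays of aly and magn[12c]/magn[23b] overlapped. For S-Lap8 it was WT, both magn combinations, aly and sa, and the arrays of the magn combinations overlapped. S-Lap7 had WT highest, then the magn combinations, which overlapped, then sa and aly. S-Lap5 had WT, sa, magn[12c]/magn[23b], magn[12c]/magn[12c];pSC2 and aly, with sa and magn[12c]/magn[23b] overlapping. For grsm the order was aly, WT, magn[12c]/magn[23b], magn[12c]/magn[12c];pSC2 and sa. There aly and WT overlapped, and the 3 genotypes below them overlapped each other.

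Within single arrays the members drew apart by unlike amounts. Each member was expressed relative to its WT mean, and the gap between the lowest and the highest member of an array was 6.23 to 6.53 log2 units in the aly arrays, 1.01 to 1.63 in sa, 0.89 to 1.41 in magn[12c]/magn[23b], 1.66 to 1.74 in magn[12c]/magn[12c];pSC2 and 0.12 to 0.19 in WT. S-Lap5 was the lowest member in all 3 aly arrays and all 4 magn arrays, and S-Lap8 in all 3 sa arrays. The root mean square difference between 2 members over the 13 arrays ran from 0.41, for grsm and S-Lap2, to 3.15, for grsm and S-Lap5. S-Lap2 and S-Lap8 differed by 0.54 on this measure and S-Lap5 and S-Lap7 by 1.71. The difference of 2 members per array was also compared between each mutant genotype and WT by exact permutation of the arrays, two-sided, in 40 cases. The smallest p this can give is 0.1, which 30 of them had, so these groups are too small for that test to pass 0.05.

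Other genes with profiles close to each member were found by the root mean square difference, over the 13 arrays, of log2 values relative to the WT mean, among 5050 genes with a name. Closest to S-Lap8 was betaTub85D, the testis beta tubulin of the sperm axoneme (0.13), whose changes were -1.47 in aly and -1.93 in sa, followed by Theg (0.27). S-Lap7 was closest to Tpi, triose phosphate isomerase of glycolysis (0.21; -3.22 in aly and -0.91 in sa), and to Rsbp15 (0.31). S-Lap2 was closest to ND-20L, a paralog of a respiratory complex I subunit (0.20; -0.56 in aly and -1.41 in sa), and to the HMG box gene tHMG2 of spermatid chromatin (0.26). For S-Lap5 these were wam (0.41; -6.42 in aly and -1.55 in sa) and the proteasome paralog Rpn13R (0.44). For grsm they were Cchl, cytochrome c heme lyase (0.15), and the histone methyltransferase gene NSD (0.18). The likeness is a description of these arrays, and no test was made of it.

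Genes of spermatid mitochondria, where S-Lap proteins are found, were listed for comparison. Of 14 tested genes, 6 fell and 3 rose in aly, beside 24.8% and 45.6% of all genes. In sa 5 fell and 2 rose, beside 21.6% and 40.9%. The medians of the list were -0.35 in aly and -0.44 in sa, beside 0.77 and 0.66 over all genes. The genes that fell most in aly were knon, an ATP synthase subunit paralog of the spermatid mitochondrion (at least 320-fold), the sperm tail gene djl (log2 change -9.42), the porin paralog Porin2 (-8.74) and the mitofusin fzo (at least 113-fold). In sa the same 4 genes changed by -2.19, -2.81, -1.56 and -1.87. In magn[12c]/magn[23b] 2 fell and 1 rose, beside 12.4% and 25.4% of all genes. In magn[12c]/magn[12c];pSC2 also 2 fell and 1 rose, beside 16.8% and 32.2%. Those that fell, named after their values were seen, were Pink1, a kinase of mitochondrial quality control (-1.44 and -1.42), and HtrA2, a mitochondrial protease (-1.05 and -1.43). After quantile normalization 1 fell in the first and 2 in the second, beside 15.5% and 19.1% of all genes. Neither rise was then called by limma, and HtrA2 stood at -0.996 in magn[12c]/magn[23b]. With the ribosomal centring 10 fell in aly, 10 in sa, 6 in magn[12c]/magn[23b] and 9 in magn[12c]/magn[12c];pSC2. Of all genes 43.8%, 43.8%, 31.5% and 37% were then called lower, in the same order. None of the 14 was called higher by limma with that centring.

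None of the 6 other aminopeptidases tested fell on the deposited scale. Their list held 7 names set by hand, and a planned search of gene descriptions was not made. Of the 6, 4 rose in aly, 3 in sa and 1 in magn[12c]/magn[12c];pSC2, beside 45.6%, 40.9% and 32.2% of all genes called higher. None was called by limma in magn[12c]/magn[23b], where 25.4% of all genes were called higher. In that combination 3 had an adjusted p under 0.05 at changes under 2-fold. Psa was lower in aly by less than 2-fold (-0.60, adjusted p = 0.00117, limma). ApepP, aminopeptidase P, rose by 3.01 in aly and 1.82 in sa. Dip-C, a dipeptidase, rose by 2.11 and 1.54, and Dip-B, another dipeptidase, by 1.64 and 1.57. SP1029 was not above background in WT and is counted as rising in aly by its log2 change of 1.56. Against the level of 4 that change is bounded only at 1.88-fold or more, short of the 2-fold minimum. These rises depend on the scale, since with the ribosomal centring ApepP alone was called higher in aly (1.56), none was called higher elsewhere, and 2 of 6 were called lower in aly and in sa.

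**Figure D4:**
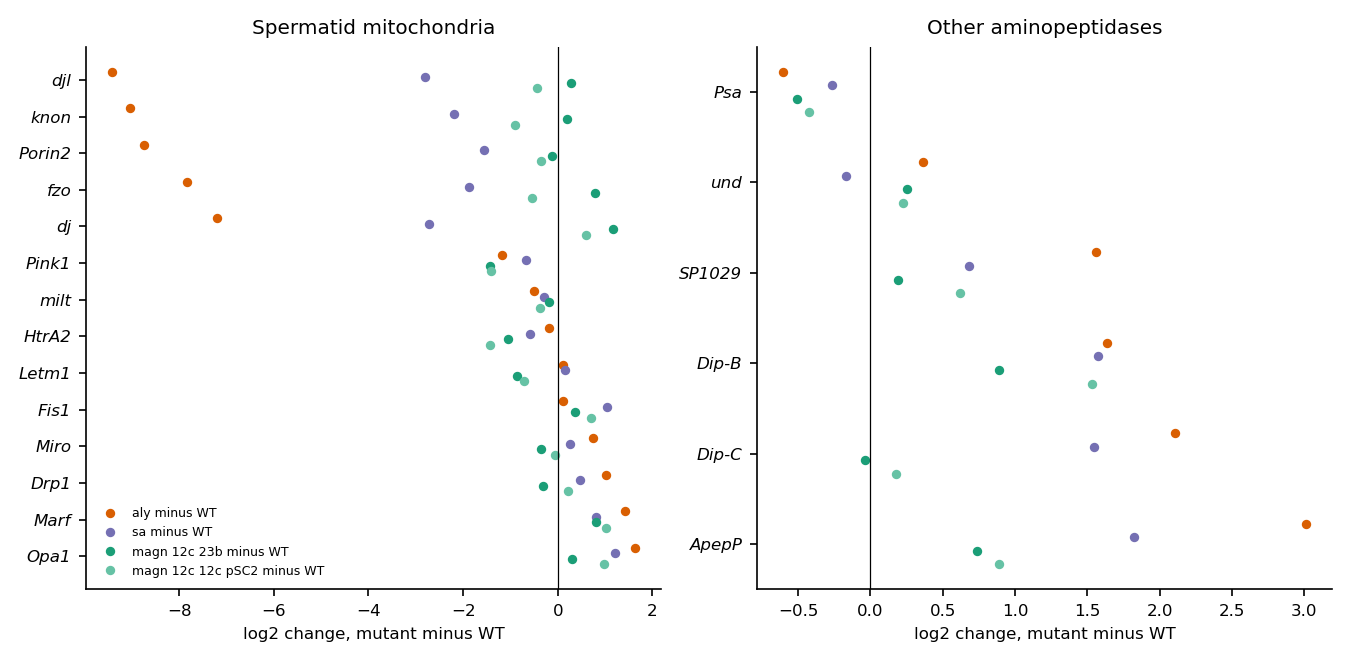
Log2 change (mutant minus WT, deposited scale) of genes of spermatid mitochondria (left) and of other aminopeptidases (right) in the 4 comparisons with WT, sorted by the change in aly. In aly 5 sperm mitochondrial genes stand between -7.21 and -9.42, while ApepP stands at 3.01.

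The genes beside the members on the chromosome were examined too, taking the 3 protein-coding genes on each side. Of these 30 genes 26 were measured and 16 tested. In aly 6 were called lower and 8 higher, beside 24.8% and 45.6% of all genes. In sa 6 were called lower and 5 higher, beside 21.6% and 40.9%. The neighbours thus went both ways, as did all genes. With the ribosomal centring 8 were lower and 6 higher in aly, beside 3819 (43.8%) and 1699 of 8720 genes. In sa 7 were then lower and 2 higher, beside 3816 (43.8%) and 910. Next to S-Lap8, whose fall in aly was 1.32, knon fell at least 320-fold from 12.32 to 3.28. Next to S-Lap5, CG43058 fell at least 111-fold and CG12464 at least 251-fold in aly, whereas fand rose by 3.96. Near S-Lap7, fl(2)d rose by 2.02 in aly. Near S-Lap5 and S-Lap7, CG6191 (3.30) and CG6220 (2.62) also rose in aly. S-Lap2 itself changed by -0.38 in aly, while its neighbours CG5989 (4.31), GAPsec (1.58) and Cdc6 (at least 9.49-fold) rose there. Zasp66 near S-Lap2 and beat-Vb beside grsm were not called in aly. Beside grsm, whose own change was 0.01, Spc25 rose by 4.91, whereas d-cup (at least 134-fold), CG10909 (at least 68.2-fold) and CG14384 (at least 198-fold) fell in aly.

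**Figure D5:**
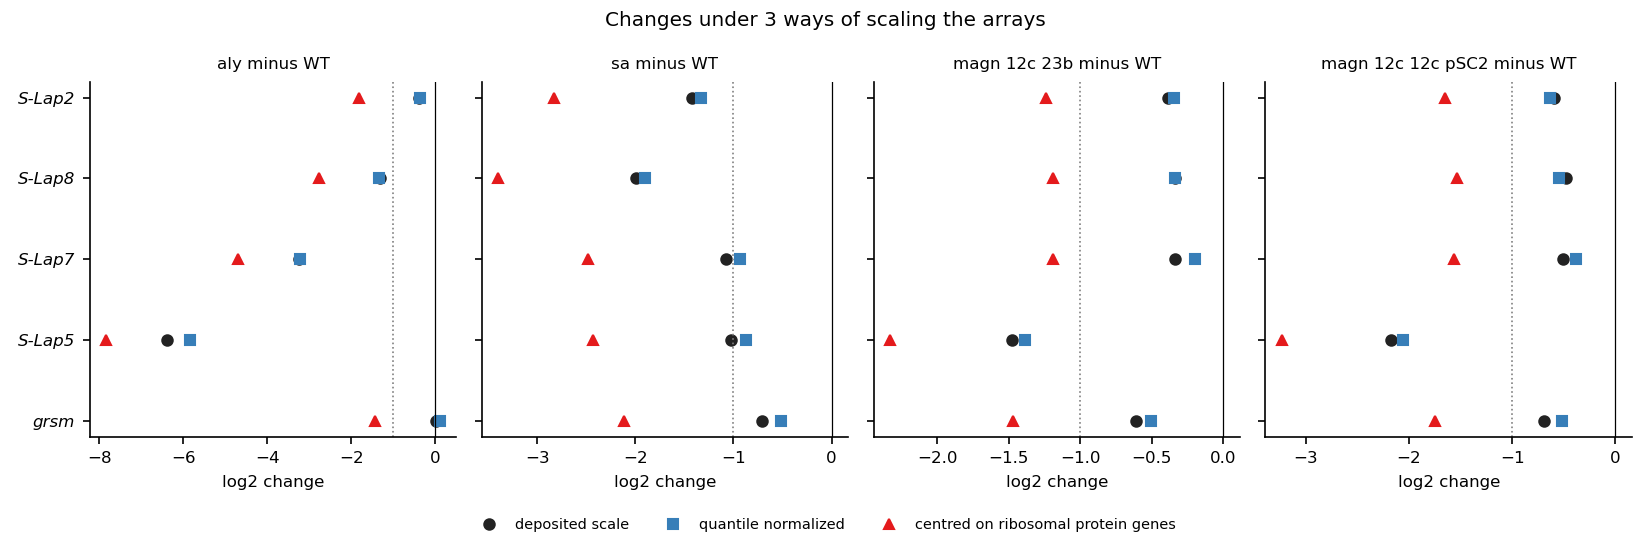
Log2 change of each gene (mutant minus WT) in the 4 comparisons with WT on the deposited scale (circles), after quantile normalization (squares) and with arrays centred on ribosomal protein genes (triangles), with lines at 0 and -1. The centring puts all 5 genes below -1 in each comparison, with S-Lap7 in magn[12c]/magn[23b] nearest to that line at -1.19.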

How the data were processed

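Testis RNA was hybridised to 13 Affymetrix Drosophila 2 arrays. Values are log2 probe set summaries made by the authors with GCRMA, per the submitters' processing notes and the deposited table; its version is not given in the sources used here. Of 18952 probe sets, 13647 pair with 1 gene symbol and 402 with several. For each of 11983 genes the probe set with the highest mean was kept, and 8720 with a log2 value above 4 in at least 3 arrays were tested. The 5 groups were fitted with limma 3.58.1 (R 4.3.3, intensity trend, no batch term), with Benjamini-Hochberg adjustment over all 8720 genes. Where all arrays of a group were at or below 4, folds are bounds against 4. In simulated aly minus WT data of 8720 genes, 87% of genes changed by 1.5 log2 and 100% of those changed by 3 were recovered, against 77% and 96% for magn[12c]/magn[12c];pSC2 minus WT and 84% and 98% for magn[12c]/magn[23b] minus WT. These simulations left 8520 of the 8720 genes unchanged, unlike the arrays themselves. Their changed genes had WT levels below those of all 5 members, so the shares do not describe the members. The number of arrays limits the precision.

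Genes named besides the members are the mutated genes, the 2 nearest profiles per member among genes with a name, up to 4 of each list with the largest called change, and the chromosomal neighbours, which were added later by position. Pink1, HtrA2, Psa and the cell type markers named fall outside that rule and were chosen after their values were seen. The members and lists were chosen with earlier results of these data known. Planned descriptions of promoters and proteins were not made, since no sequences were used here. Alternatives were other scalings, filters, fold minimums and fits, the replicate number as a block, and each array left out. Same-numbered arrays did not deviate together across all groups (of 23 correlations 7 were above 0.1 and 11 below 0). Those among WT and the magn combinations were all above 0, from 0.077 to 0.195. Deviations from the mean of 2 arrays mirror each other, so the 23 correlations are not independent. The magn combinations gave the same value, 0.195, for both replicate numbers. The numbers were not taken as pairs.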

Additional observations from a re-analysis of the deposited data

How the results depend on the processing

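When ribosomal protein genes set the centre of each array, the members called lower were 5 in aly, 5 in sa, 5 in magn[12c]/magn[23b] and 5 in magn[12c]/magn[12c];pSC2, 3 members were higher in magn than in sa and 3 higher than in aly, and grsm in aly turned to -1.43 (adjusted p = 3.57e-06, limma). That centring moved the median of all genes to -0.68, -0.75, -0.52 and -0.60. Quantile normalization left 2 members lower in sa than in WT and 0 lower in sa than in aly, beside 23.6% and 24.7% of all genes. Against aly, S-Lap2 (-0.98), grsm (-0.62) and S-Lap8 (-0.56) then had an adjusted p under 0.05 in limma at changes under 2-fold. Without a fold minimum 4 members were lower in magn[12c]/magn[23b] and 5 in magn[12c]/magn[12c];pSC2, beside 18.5% and 22.2% of all genes. In sa against aly 3 were lower, beside 31.1% of all genes, and in magn against aly 1 was lower, beside 46.2%. Against sa magn had 1 lower and 3 higher, beside 3322 lower (38.1%) and 2250 higher of 8720 genes. Leaving out 1 array at a time gave 3 to 4 members lower in sa than in WT, and 0 to 1 lower in sa than in aly (0 without sa replicate 2). Magn against sa had 2 higher without sa replicate 3 (S-Lap2 at 1.01). Leaving out either magn[12c]/magn[23b] array left 1 in that group, so only the change is given. S-Lap5 read -1.01 in magn against sa without replicate 2, and -1.13 between the magn combinations without replicate 1. S-Lap5 in magn[12c]/magn[23b] ranged from -1.90 to -1.05. With the replicate number as a block the counts of members lower than WT were 3, 4, 1 and 1, S-Lap5 in magn[12c]/magn[23b] read -1.41, and no call of a member changed. The same calls held without the filter on low values, without the intensity trend, with every probe set and with only the groups compared. Each member has 1 probe set and passes the filter, so these settings leave its log2 changes as they were. They could alter only the spread estimate and the adjusted p, and are a weak check of the calls. The cause of these differences was not tested, and 2 arrays per magn combination limit the precision.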
